A study of Mus musculus with 2 samples.

Results

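The windows described here are 235 of the 668 that the authors listed as enriched for 5-hydroxymethylcytosine (5hmC), or 35.2% of the list (95% interval 31.6 to 38.9). They are the windows that the authors' annotation placed between genes and outside simple repeats of CA or TG. The rule read only these annotations, so location and the absence of a CA/TG repeat are not results. The other 433 windows were 180 intergenic windows in CA/TG repeats, 126 intron windows outside them, 115 intron windows in them, and 12 at promoters or transcript ends. The list compares 2 libraries. The 5hmC-enriched library was made by immunoprecipitation of sheared genomic DNA with a polyclonal 5hmC antibody from ActiveMotif, and the input library from total genomic DNA without that step. Both came from R1 mouse embryonic stem cells, an established line, expanded in 2i medium and taken on day 3 as embryoid bodies under atmospheric O2. DNA from 3 samples was pooled, so each group is 1 library and no value has a replicate error. Embryoid bodies mix cell types, and the list cannot tell them apart.

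The base 5hmC is made when TET enzymes oxidise 5-methylcytosine, which in mammals lies mostly at CpG dinucleotides. Intergenic DNA holds several repeats in which such marks are studied. The major satellite, annotated as GSAT_MM, forms the heterochromatin beside mouse centromeres. TTAGGG repeats cap chromosome ends and also occur as shorter arrays inside chromosomes. ERVK elements are endogenous retroviruses, whose long terminal repeats (LTRs) can act as promoters or enhancers in early embryos. The sequence and counts below are those of the reference genome in each window and do not show which base was modified. R1 cells derive from a different mouse strain than the reference genome.

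Each window is 51 bases long and carries a peak score, 1 value set by the authors whose scale is not named in the header or the labels. It is used to rank windows within the list. The members fell into 8 annotation classes. No repeat was annotated in 64 windows (27.2%), other simple repeats in 56 (23.8%), the satellite entry IMPB_01 in 52 (22.1%), ERVK LTRs in 22 (9.36%), telomere-type repeats in 13 (5.53%), low-complexity sequence in 13, other satellites in 9 (3.83%) and other repeats in 6.

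Sequences are given below for selected windows in IMPB_01, in an ERVK LTR, in (TCTG)n and with no annotated repeat. They were pieced together from overlapping motif matches that the authors listed per window, and read 5′ to 3′ on the + strand of GRCm38 (mm10). Bases are known only where a listed motif matched, and the most frequent motifs are alternations of C and A or of T and G. The rebuilt bases thus lean to such sequence and cannot show how the classes differ. In telomere-type members and in other satellites, the median number of bases known was 0. Capitals mark the longest unbroken alternation of C and A, or of T and G. The first 4 are in IMPB_01, the fifth in the ERVK LTR RLTR20A4, the next 3 in windows with no annotated repeat, and the last 2 in the simple repeat (TCTG)n. G630093K05Rik, Tbx5, 1810053B23Rik, BC018473, Erdr1 and Apob are shown as windows among the top 3 scores of their class, and Vim and Cd44 for their genes. Windows with scores equal to some of these, at Rbm19, Sntg1 and Gm15319, are not shown. Their longest runs in rebuilt stretches of at least 8 bases were 8, 2 and 6, and the stretch at Sntg1 has only 8 bases. Endou was added for the longest rebuilt run of any member, and Rhobtb1 for a CpG beside its run.
G630093K05Rik, chr13:47869124-47869170: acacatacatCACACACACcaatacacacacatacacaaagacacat
Tbx5, chr5:119782449-119782492: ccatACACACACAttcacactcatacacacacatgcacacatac
Vim, chr2:13609858-13609903: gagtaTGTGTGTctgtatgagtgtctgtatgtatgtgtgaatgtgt
Endou, chr15:97742945-97742974: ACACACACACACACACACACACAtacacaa
1810053B23Rik, chr16:93211297-93211328: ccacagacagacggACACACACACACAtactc
BC018473, chr11:116746347-116746364: tgGTGTGTGTatgtgttc
Erdr1, chrY:90769188-90769212: aatcactCACAgtcatccccctgcc
Rhobtb1, chr10:69171830-69171871: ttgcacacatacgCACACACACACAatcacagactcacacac
Apob, chr12:7890461-7890494: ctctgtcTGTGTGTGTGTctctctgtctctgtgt
Cd44, chr2:102903498-102903543: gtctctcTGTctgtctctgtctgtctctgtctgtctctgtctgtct

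The IMPB_01 stretches and the ERVK stretch shown are CA or TG repeats broken by other bases, although the annotation does not call them that. The longest unbroken run in the rebuilt bases was 23 bases, in the IMPB_01 window 11.6 kb upstream of Endou. The Cd44 window repeats tctg with extra tc or ct, and the Apob window, of the same annotation, holds a TG run of 11 bases. In the 25 bases shown of the window nearest to Erdr1 on chromosome Y, the longest alternating run was 4 bases.

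The motif columns show how common matches to such sequence were over all members. At least 1 of the motifs ACACACACAC, ACACACACACAC and GTGTGTGT, which overlap and were listed by the authors with mismatches allowed and on either strand, was present in 145 of 235 members (61.7%, 95% interval 55.2 to 67.9). In the rest of the list it was present in 394 of 433 windows (91.0%), most of them in CA/TG repeats. The share ran from 50 of 52 IMPB_01 windows (96.2%), 19 of 22 ERVK windows (86.4%), 44 of 64 windows without a repeat (68.8%) and 26 of 56 in other simple repeats (46.4%) down to 2 of 13 in low-complexity sequence, 1 of 13 in telomere-type repeats and 0 of 9 in other satellites (interval 0 to 33.6%). The rule had removed annotated CA/TG repeats, yet most members still had a match to these motifs, with mismatches allowed. In the rebuilt bases, an unbroken run of at least 10 was found in 39 members (16.6%), of which 14 had no annotated repeat, 12 were IMPB_01, 11 ERVK and 2 other simple repeats. It was found in 85 of the 180 intergenic windows in CA/TG repeats, with a longest run of 31 bases. The median number of bases known per window was 28 of 51 in members and 41 in these CA/TG windows. Bases were known in 176 of the 235 members. Both counts are thus lower bounds, at unlike coverage. The share of all genomic windows holding these motifs was not computed, since no genome sequence was used here. The motif GTCTGTCT matched 31 members (13.2%) and 46 windows of the rest (10.6%), and CCCCCCCC matched 33 (14.0%) and 41 (9.47%).

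**Figure D1:**
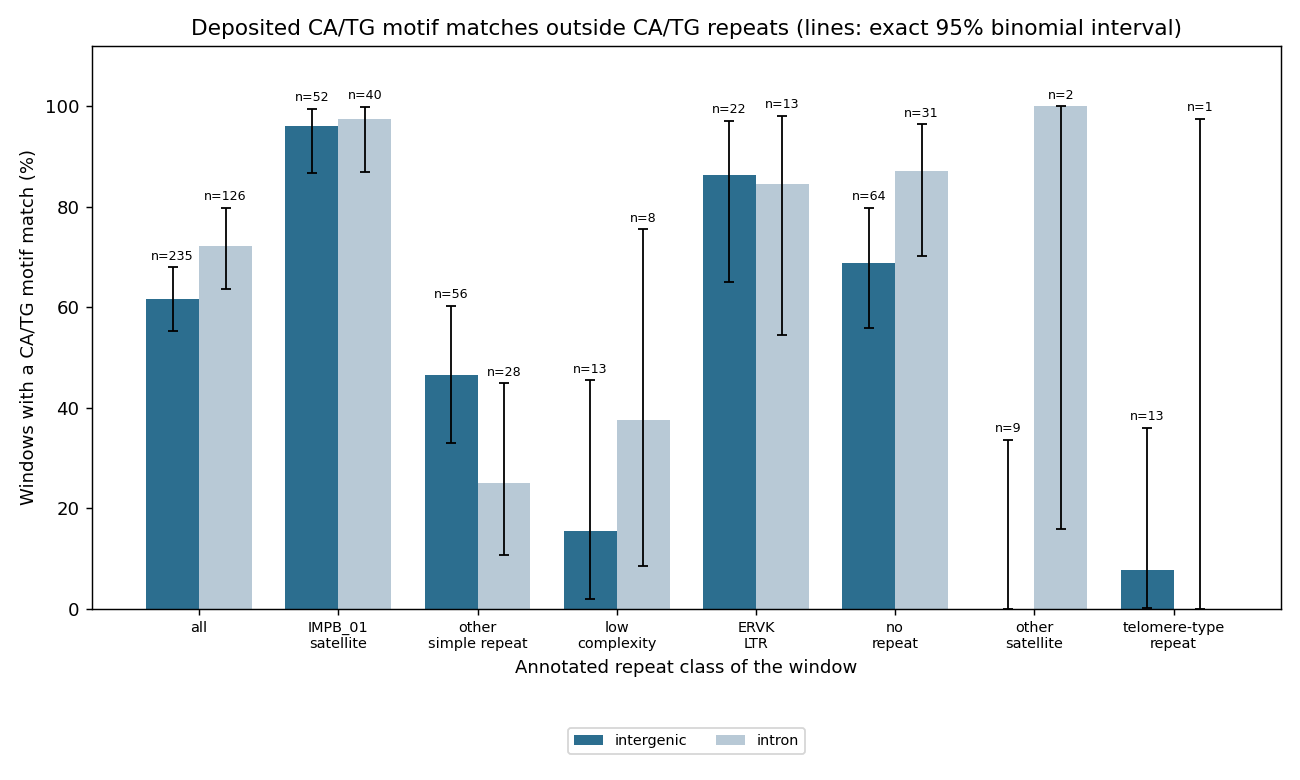
Share of windows (%) with at least 1 deposited CA/TG motif match, by annotated repeat class, for intergenic (left, dark) and intron (right, light) windows outside CA/TG repeats. Lines are exact 95% binomial intervals and n is the number of windows. IMPB_01 stands at 96.2% and 97.5%, and intergenic other satellites at 0%.

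Peak scores of the members had a median of 4.95, a range of 2.00 to 18.0 and quartiles of 4.04 and 6.35. Of the 235 members, 146 (62.1%, 95% interval 55.6 to 68.4) were at or above the median score of the whole list, against 61.5% of all listed windows. A score of 10 or more was reached by 10 members (4.26%, interval 2.06 to 7.69), against 3.14% of all listed windows. Both shares were near that background. Only 39 distinct scores occurred among the members, and the 6 most frequent covered 158 of them (67.2%). The value 4.95 alone was shared by 42 members, so ranks in the middle of the list rest on few distinct values.

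The 10 members with a score of 10 or more comprised 4 of 56 other simple repeats, 2 of 13 telomere-type repeats, 2 of 9 other satellites and 2 of 64 windows without a repeat. No IMPB_01 window (0 of 52, interval 0 to 6.85%) and no ERVK window (0 of 22, interval 0 to 15.4%) reached it. Their highest score was 9.60 in each class. These counts are small, and the intervals of the classes overlap. A CA/TG motif was present in 5 of the 10, and a CpG in 2, both of them GSAT_MM.

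**Figure D2:**
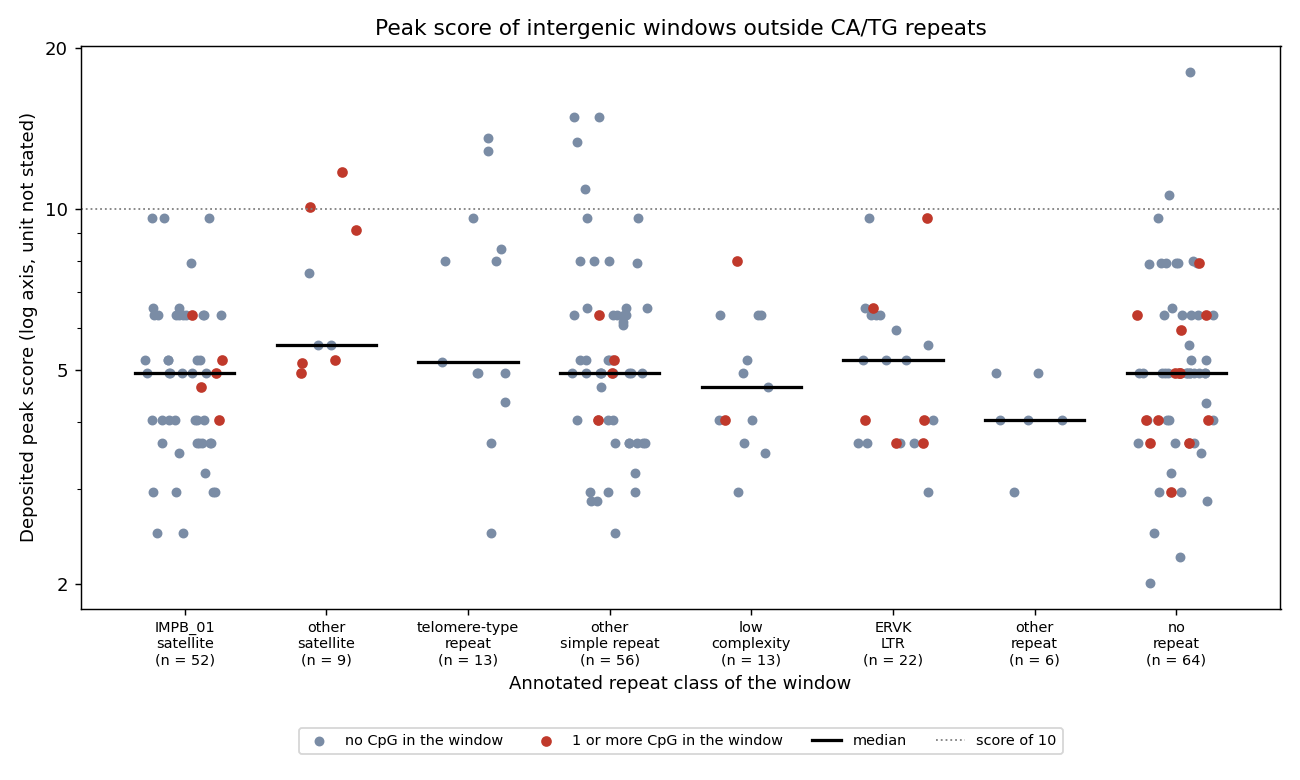
Deposited peak score (log axis, unit not stated) of each member by annotated repeat class. Points are windows, red where the window holds a CpG, bars are medians and the dotted line is a score of 10. Class medians lie between 4.04 and 5.58, and the highest point is the BC018473 window at 18.0.

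Other satellites were the members richest in CpG. They comprised 8 GSAT_MM windows and 1 window in (CATTC)n, nearest to Arid1b, a subunit of the BAF chromatin remodelling complex, with a score of 5.57. A CpG or more was found in 6 of 9 (66.7%, interval 29.9 to 92.5), with 10 CpG in all. These 6 were a pair near Vmn1r2, 3 windows near Pisd-ps1 and 1 near Lrrc4c, all described below. The interval treats windows as separate observations, which close windows in copies of 1 repeat are not, so it is too narrow. CpG was also set against the count that bases of the same GC content would give in random order, with C and G equally frequent. The ratio was 0.610 in this class and 0.0847 over all members. Many member stretches shown above are mostly C and A, or mostly T and G. For such windows the expected count is too high, so the ratio over all members overstates the shortage of CpG. A pair of windows on chromosome 4, 82.3 and 81.1 kb upstream of Vmn1r2, a vomeronasal receptor gene, had scores of 11.7 and 9.13. The second highest score of the class was 10.1, nearest to Lrrc4c, a postsynaptic adhesion protein, at 1199 kb. Other scores were 7.60 nearest to Gm5458, and 5.58 nearest to Kcnh5, a voltage-gated potassium channel. A group of 3 windows within 1.29 kb on chromosome 11, upstream of the pseudogene Pisd-ps1, had scores of 5.22, 5.16 and 4.95 and held 5 CpG. By the gene table, all 9 windows lay in gaps of more than 500 kb between genes with curated transcripts. The median gap was 2960 kb (interval 597 to 3011), and the 9 windows fell into 6 such gaps. Over all 213 members with such a gap the median was 182 kb (interval 136 to 212), and 51 of these members lay in gaps of more than 500 kb. The gap of 2960 kb is that at Vmn1r2, with LOC100041593 as its far bound, 2877 to 2879 kb from the windows. At Pisd-ps1 the far bound is Rn28s1, 2989 to 2990 kb from the windows. The placement of LOC100041593 and Rn28s1 on these chromosomes was not checked, so the gaps that they bound may be overstated. They bound the gaps of the pair at Vmn1r2 and of the 3 windows at Pisd-ps1. The count of 9 windows in such gaps and the median of 2960 kb thus rest on that placement. GSAT_MM occurs in near-identical copies, and the treatment of reads matching several places is not given in the sources used here.

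Telomere-type windows contained no CpG (0 of 13, interval 0 to 24.7%), and the repeat unit itself contains none. Their median score was 5.18, with a range of 2.49 to 13.6. The highest 3 were 13.6 upstream of Lphn2, a latrophilin adhesion receptor, 12.8 nearest to Gm14496, and 9.60 nearest to Gng4, a G-protein gamma subunit. The others were 8.43 nearest to the vomeronasal receptor gene Vmn2r87, 7.99 nearest to Isl1, a transcription factor of cardiac and motor neuron progenitors, and 7.99 nearest to Rbfox1, a splicing factor. Scores below these were 5.18 at 1700008P02Rik, 4.95 at the homeobox gene Nkx2-6, 4.95 at Mfap2, 4.36 at Ikzf2, 3.65 at the latrophilin gene Lphn3, and 4.95 and 2.49 in windows within 1.23 kb nearest to Pisd, a mitochondrial phospholipid enzyme.

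Most telomere-type windows were interior to their chromosome. The windows at Gm14496 and Vmn2r87 were 2 of only 3 members that lay beyond the last gene with a curated transcript on their chromosome, and the other 11 telomere-type windows lay between such genes. An unbroken telomere array would give 24 to 27 G or C in 51 bases (47.1% to 52.9%). The GC content was in that range in 8 of 13 windows and outside it in 5, among them Gng4 at 54.9% and Nkx2-6 at 45.1%. The window 1091 bp upstream of Mfap2, a microfibril protein, was the closest of all members to a transcription start. At the other end, the windows nearest to Isl1, Lphn3 and 1700008P02Rik were 567, 521 and 504 kb away.

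Other simple repeats had the highest scores after BC018473 but few CpG (4 of 56, 7.14%, interval 1.98 to 17.3). They comprised 28 repeat units. Units of only G and A, or only C and T, made up 20 windows with scores of 2.86 to 14.9, units of only C and A or T and G 5, and other units 31. The most frequent were (GA)n and (TTTC)n with 6 windows each, (TGGA)n with 5, and (CATA)n and (GAAA)n with 4 each. A score of 14.9 was shared by a (TC)n window 28.9 kb from Gm15319 and a (TCTG)n window 87.2 kb upstream of Apob, which encodes the structural protein of low-density lipoprotein. These were followed by 13.3 in (GAATG)n, 99.7 kb upstream of Gm4736, and 10.9 in (CACCT)n, 8.36 kb upstream of Pla2g4d, a phospholipase A2. The (CACAG)n window nearest to Mir205, a microRNA of epithelial cells, had a score of 9.60 at 6.02 kb.

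Simple repeats also held members close to starts. A (TCTG)n window of score 4.95 lay 1855 bp upstream of Cd44, the hyaluronan receptor, and a (CATA)n window of score 4.04 lay 3.82 kb upstream of Cep85l. Farthest was a (TAGA)n window 673 kb from Epm2a, the phosphatase laforin, with a score of 4.04. Low-complexity windows had a median score of 4.66. The highest was 7.99 in a G-rich window with 2 CpG, 4.84 kb upstream of Tmem125, followed by 6.35 at the Fanconi anaemia gene Fancf and at the protease gene Adamts15. Low-complexity windows also included 3.50 at 4.31 kb upstream of Eqtn, a sperm acrosome protein gene, and 6.35 at 241 kb upstream of the axon guidance gene Sema3a.

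The 52 IMPB_01 windows were nearest to 47 genes and were poor in CpG (5 of 52, 9.62%, interval 3.20 to 21.0). The median score was 4.95 and the range 2.49 to 9.60. A score of 9.60 was shared by windows 17.5 kb upstream of Rbm19, a ribosome biogenesis factor, 41.3 kb upstream of G630093K05Rik, and 52.2 kb upstream of Tbx5, a T-box factor of heart and forelimb development. Tbx5 was the nearest gene of 3 more IMPB_01 windows, with scores of 5.22, 4.95 and 3.65, and the 4 windows spanned 154 kb on both sides of its start. No other gene had 4 member windows, and none of these 4 held a CpG. Psmd7, a proteasome subunit, was nearest to 3 IMPB_01 windows with scores of 7.92, 6.35 and 3.65, at 190 to 390 kb upstream.

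Within 5 kb of a start lay 3 of the 52 IMPB_01 windows (5.77%, interval 1.21 to 15.9), against 5.53% of all members. One with a score of 4.04 lay 2275 bp upstream of Smarca2, a chromatin remodelling ATPase, and one with a score of 4.66 and 1 CpG lay 3.53 kb upstream of Vill, a villin-like protein. Farthest was a window of score 6.35 at 735 kb from the noncoding RNA gene Pantr1. Outside the naming rule and chosen after their values were seen, windows of this class also lay nearest to Vim (6.54 at 35.6 kb), Lep (6.54 at 17.5 kb), Il4 (6.35 at 7.51 kb) and Il2 (6.35 at 25.9 kb), which encode vimentin, leptin and the interleukins of those names.

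ERVK windows came from 6 LTR entries. RLTR20A4 gave 9 of the 235 members and RLTR17B_Mm 7, against 2 and 4 of the 126 intron windows outside CA/TG repeats. Those intron windows held all 13 ERVK windows of the rest of the list. ERVK LTRs made up 9.36% of members and 10.3% of those intron windows, so the shares were close. At least 1 CpG was present in 6 of 22 (27.3%, interval 10.7 to 50.2), including 4 of the 7 RLTR17B_Mm windows. Scores had a median of 5.22. A score of 9.60 was shared by an RMER17D2 window 65.7 kb upstream of Sntg1, a syntrophin, and an RLTR20A4 window with 1 CpG at 142 kb from 1810053B23Rik. An RLTR17B_Mm window of score 6.54 with 1 CpG lay 47.2 kb upstream of Cpm, a carboxypeptidase gene, 927 bp from a (CATA)n window of score 7.92.

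No ERVK window lay within 5 kb of a start. The nearest were in RLTR20A4, at 5.96 kb from E330017L17Rik (score 5.22) and 10.4 kb from Avpr1a, a vasopressin receptor (score 4.04, 1 CpG). Another RLTR20A4 window, of score 5.57, lay 10.9 kb upstream of Plagl1, an imprinted zinc finger gene. Farthest was an RMER6A window 847 kb upstream of Fbxo33, with a score of 6.35. The other repeats were 6 windows without a CpG, among them LINE fragments nearest to Gcm1 (L2, 4.95 at 13.7 kb), Mir466g (L1_Mur2, 4.95 at 98.5 kb), the odorant receptor gene Olfr1384 (L1M2, 4.04 at 3.93 kb) and the ribosomal protein gene Rps29 (L1_Rod, 4.04 at 389 kb).

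Windows with no annotated repeat held the highest score of all members, 18.0, at 5.80 kb upstream of BC018473. Erdr1 followed with 10.6 at 16.2 kb upstream on chromosome Y, and Mex3c, an RNA-binding ubiquitin ligase gene, with 9.60 at 69.4 kb upstream. All 3 lacked a CpG. Of the 64 windows, 13 held a CpG (20.3%, interval 11.3 to 32.2), and the class had 20 CpG altogether. Of these 20, 8 were in 3 windows upstream of Gata4, a zinc finger factor of endoderm and heart development.

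The Gata4 windows lay within 1.87 kb on chromosome 14. At 1249 bp upstream of the start the score was 6.35, with 2 CpG and a GC content of 56.9%, in the only member annotated as a CpG island. At 2.59 kb the score was 2.96, with 3 CpG and 58.8% GC, and at 3.06 kb it was 4.95, with 3 CpG and 43.1% GC. None of the 3 had a CA/TG motif. Only 1 other member had 3 CpG, a window of score 6.35 at 18.97 kb upstream of Rn4.5s, a small RNA gene, with 60.8% GC. By the RefSeq gene table of GRCm38.p6 the 3 windows lie inside the bounds of Gata4, so their intergenic place depends on the gene models used.

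**Figure D3:**
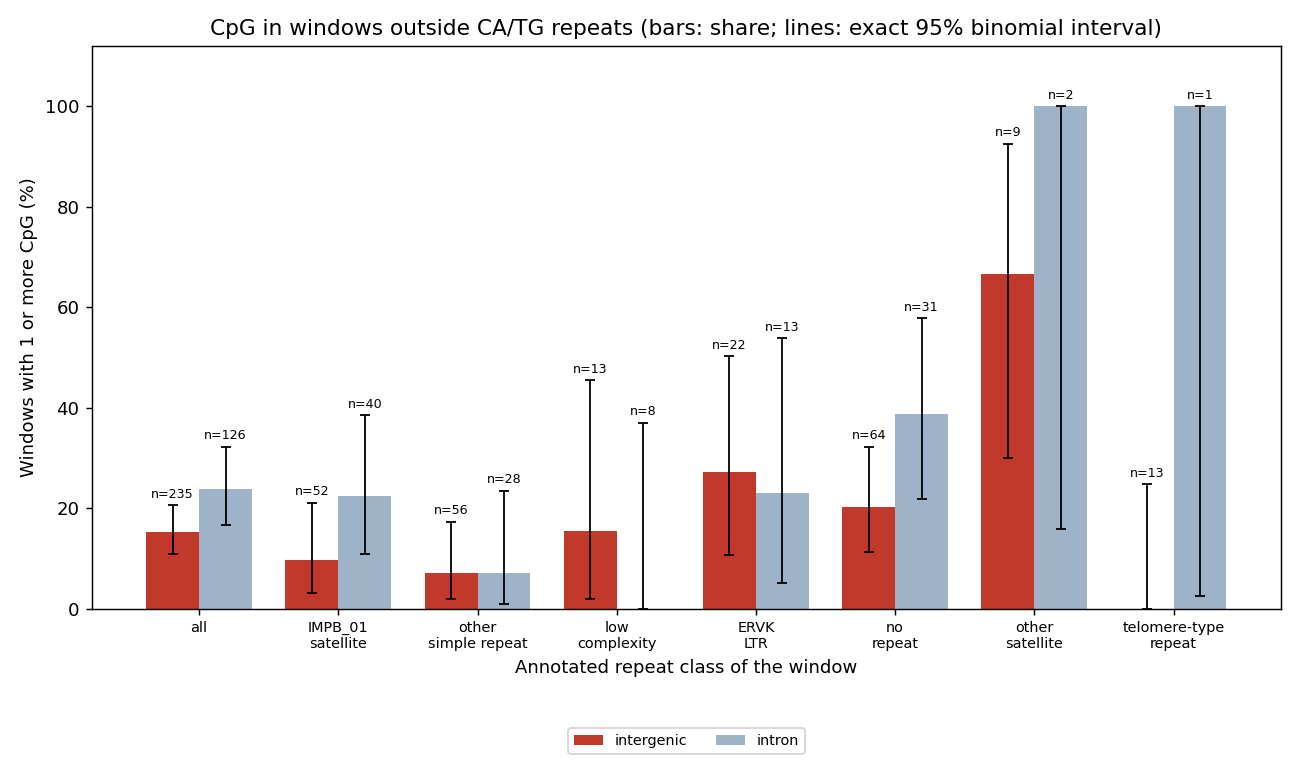
Share of windows (%) with at least 1 CpG by annotated repeat class, for intergenic (left, red) and intron (right, blue-grey) windows outside CA/TG repeats. Lines are exact 95% binomial intervals and n is the number of windows. Intergenic other satellites stand at 66.7%, and intergenic telomere-type repeats at 0%.

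Over all members, 36 of 235 windows had a CpG (15.3%, interval 11.0 to 20.6), of which 27 had 1, 6 had 2 and 3 had 3. In the rest of the list it was 70 of 433 (16.2%), and in intergenic CA/TG repeats 24 of 180 (13.3%). Intron windows outside CA/TG repeats had a CpG in 30 of 126 (23.8%, interval 16.7 to 32.2). Within classes the intergenic and intron shares were 20.3% and 38.7% without a repeat, 9.62% and 22.5% in IMPB_01, 27.3% and 23.1% in ERVK, and 7.14% in both for other simple repeats. The intervals overlapped in each of these pairs. These windows all come from the same pair of libraries, so no test was made.

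A score of 10 or more was reached by 2 of the 36 members with a CpG and 8 of the 199 without one, and by 5 of the 145 members with a CA/TG motif and 5 of the 90 without one. Median scores say little here, since 42 members share the value 4.95. Of the 90 members without a motif, 15 had a CpG, of which 6 were other satellites and 5 had no annotated repeat, namely the 3 at Gata4, that at Rn4.5s and that at Dynll2, a dynein light chain gene.

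The median distance of the members to the nearest transcription start was 48.5 kb (interval 40.6 to 69.4), with quartiles of 19.3 and 124 kb. It was 47.8 kb in intergenic CA/TG repeats and 36.1 kb over the whole list. None was within 1 kb, 13 (5.53%) were within 5 kb, 75 (31.9%) were beyond 100 kb and 12 beyond 500 kb. In intergenic CA/TG repeats 4.44% were within 5 kb and 35.6% beyond 100 kb. The farthest, at 1518 kb upstream of Dsel, a dermatan sulfate epimerase-like gene, had no repeat and a score of 3.65. Medians ran from 38.9 kb in other simple repeats, 41.7 kb in ERVK and 46.0 kb without a repeat to 61.8 kb in IMPB_01, 82.3 kb in other satellites and 97.5 kb in telomere-type repeats. The window was upstream of its nearest start in 143 members (60.9%), against 61.1% in intergenic CA/TG repeats. Among windows without a repeat this share was 46 of 64 (71.9%). By the RefSeq gene table of GRCm38.p6, 49 members lay inside a gene, those nearest to Sema3a and Rhobtb1 among them.

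**Figure D4:**
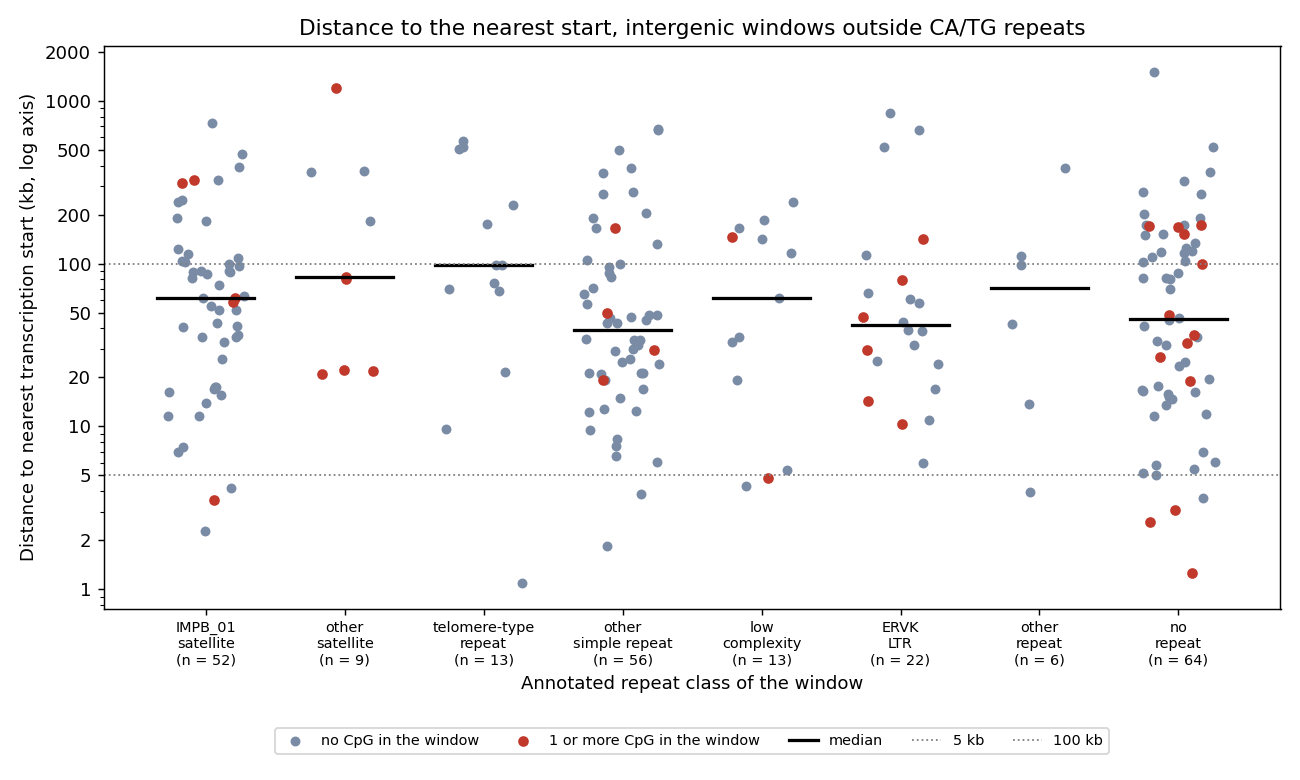
Distance from each member to the nearest transcription start (kb, log axis) by annotated repeat class. Points are windows, red where the window holds a CpG, bars are medians and dotted lines mark 5 and 100 kb. The closest points are at Mfap2 (1.09 kb) and Gata4 (1.25 kb), and the farthest at Dsel (1518 kb).

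Nearest genes are those of the authors' annotation. By the RefSeq gene table, the symbol of the nearest gene was that of a flanking gene with curated transcripts in 193 of 235 members. In others the named gene held the window, as at Syne1, or another gene was nearer. The window annotated to Arid1b at 369 kb lay 8.53 kb from 4930517M08Rik. The members had 217 nearest genes, of which 13 were nearest to more than 1 member, with 31 windows in all. In 6 of these 13 the windows lay within 10 kb of each other, at Pisd-ps1, Gata4, Cdc16, Cpm, Pisd and Vmn1r2. The pair at Cdc16, a subunit of the anaphase-promoting complex, had scores of 7.92 and 6.35, 893 bp apart and without a repeat. Wider spaced were pairs at Sipa1l2 (7.92 and 6.35, 34.3 kb), Mir205 (9.60 and 4.95, 121 kb), Prdm1 (6.54 and 3.65, 187 kb), Pantr1 (6.35 and 3.50, 467 kb) and Mir466g (4.95 and 3.65, 568 kb), beside Tbx5 and Psmd7. Of all members, 14 (5.96%) lay within 10 kb of another member and 24 (10.2%) within 100 kb. Sheared fragments were 200 to 1000 bp long, and the library insert was 200 bp. Windows less than 1000 bp apart, as at Cdc16, Cpm, Pisd-ps1 and Gata4, may share sheared fragments. The smallest step between them was 471 bp, at Gata4, which is longer than the insert.

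The neighbouring genes were mostly protein-coding (190 of 235 windows, 80.9%, against 83.1% in the rest of the list) or noncoding RNA genes (37, 15.7%, against 15.9%). Pseudogenes were nearest to 7 members (2.98%), against 2 of the rest (0.462%), and 3 of these 7 were the GSAT_MM windows at Pisd-ps1. Of 12 lists holding 258 genes, 7 genes in 5 lists were the nearest gene of a member, with 13 windows. That is 2.71% of the listed genes, against 0.801% of all 26220 genes with curated transcripts (210 of them, matched by symbol). Over all 668 windows it was 15 listed genes, or 5.84% of the 257 with curated transcripts, against 2.24% of all genes with curated transcripts. The lists were chosen with earlier results of these data known, so a higher share of listed genes is not a result here. Gene length and spacing, which set how often a gene is the nearest one, were not accounted for. The 7 were Tbx5 and Isl1 of 22 mesoderm genes, Gata4 and Apob of 17 endoderm genes, Prdm1 of 17 germ cell genes, Tcf7l1 of 24 pluripotency genes and Plagl1 of 38 imprinted genes. Tcf7l1, a repressor that acts in Wnt signalling, had a (CATA)n window of score 4.95 at 31.6 kb upstream, and Prdm1, a factor of germ cell specification, a (TTTC)n window of score 6.54 at 34.0 kb.

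None of the listed primed epiblast (10), neuroectoderm (22), DNA methylation (30), ERVK and satellite silencing (24), telomere maintenance (21), hypoxia (23) and housekeeping (18) genes was nearest to a member. Signalling genes outside these lists, chosen after their values were seen, included Tgfb2, a TGF-beta ligand gene, with an IMPB_01 window of score 4.95 at 245 kb, and Fzd5, a Wnt receptor gene, with an RLTR17B_Mm window of score 3.65 at 39.4 kb upstream. Olfactory and vomeronasal receptor genes were nearest to 7 members (6 genes) and microRNA genes to 8 (6 genes), which is 0.404% and 0.504% of the genes of each kind with curated transcripts. Over the whole list they were 7 and 21 genes. No gene expression was measured in the file used here, so a nearest gene is a position only.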

How the data were processed

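Enriched windows of 5hmC immunoprecipitated DNA over input were taken from 1 table deposited by the authors. The submitters' processing notes list Bowtie, MACS 1.0.1 and mm9 and give no roles. For the settings of peak calling, the annotation tool and the treatment of multiply mapped reads, the answer is not given in the sources used here. The peak score deposited by the authors, 1 value per window, has no stated scale, and CpG and GC were deposited by the authors as a fraction of 50 dinucleotides and 51 bases, printed here as counts and percent. Coordinates are GRCm38: the nearest gene of 159 member windows had a start in the RefSeq GRCm38.p6 promoter table. For 130 of these windows the start computed from the window lay within 5 bp of such a start. Gaps between genes use that build's gene table. No read counts were used, so depth is unknown.

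Members were chosen by annotation, and the members and gene lists were chosen with earlier results of these data known. Shares carry exact Clopper-Pearson 95% intervals and medians order-statistic 95% intervals, both for counting error only. With 1 pooled library per group no test was made. Bases of windows were rebuilt from the deposited motif matches, whose cells stop at 255 characters in 239 of the 668 windows. Over the whole list the rebuilt bases had 0 conflicts and the 8 complete windows matched their GC content. Some bases were rebuilt in 176 members. Named genes are the neighbours of the 15 highest scores, the top 3 of each class, the 2 nearest and the farthest of each class, windows with 3 or more CpG, genes with 2 or more windows and listed genes. Alternatives were another definition of intergenic, merging of close windows and subsets by score or CpG. Python 3.11.15, pandas 2.3.3, numpy 2.4.6, scipy 1.17.1 and matplotlib 3.10.9 were used. Only the rebuilding of bases and the search for alternating runs were tested on simulated windows.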

Additional observations from a re-analysis of the deposited data

How the results depend on the processing

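Of 136 values recomputed for 20 results under 7 settings, 124 stayed inside the 95% interval of the value given above. Placing windows by the RefSeq gene table lowered the intergenic share of the list outside CA/TG repeats to 29.8%. Merging windows within 10 kb lowered genes with 2 or more windows to 3.23%, against 5.99%, and windows within 100 kb of another to 4.41%, against 10.2%, since merging removes such pairs. Keeping only the 36 windows with a CpG gave 36.1% without a repeat, 16.7% ERVK, 16.7% other satellites, 13.9% IMPB_01, 11.1% other simple repeats, 0% telomere-type and 0% other repeats, with 75.0% nearest to protein-coding genes and 22.2% within 100 kb of another. No paired analysis was possible because each group is 1 library of pooled DNA. Depth is unknown, so windows of low score cannot be weighed by reads.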

Other observations

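Windows called intergenic by the authors' annotation were not all outside genes in another set of gene models. By the RefSeq gene table of GRCm38.p6, 49 of the 235 members lay inside a gene, 29 of them in long noncoding RNA genes alone and 15 in protein-coding genes alone, and 19 lay inside a gene with curated transcripts. Among these were windows inside Syne1, a nuclear envelope protein, the neuronal adaptor Dab1, and Tshz2, a zinc finger gene, whose window was annotated as nearest to A630075F10Rik. The windows nearest to Mir6388 and Tmem121 lay inside Igh, the immunoglobulin heavy chain locus. The table left 186 members as intergenic and added 13 other windows.

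Members were found on all 19 autosomes, from 4 windows on chromosome 19 to 20 each on chromosomes 5 and 10. Chromosome X held 1, nearest to Gm10921 with a score of 5.57, and chromosome Y held 2, nearest to Erdr1 and to Gm20877. The rest of the list had 430 windows on autosomes, 1 on X and 2 on Y.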
